A study of Homo sapiens with 6 samples.

Results

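Interferon-stimulated antiviral genes are described here as a set of 48 genes, chosen by name from what is known of the interferon response. The rule itself uses no measured value, but earlier results of these data were known when the genes were chosen. A gene was taken as measured when at least 1 probe set carried its symbol alone in the platform annotation, and where several did, the one whose mean over all 6 arrays was highest was used. All 48 genes were measured, out of 11963 genes in all. Expression was profiled on Affymetrix arrays in A549, a long-established cell line from a human lung adenocarcinoma, in 3 groups of 2 arrays, and the study set the effect of PIAS3 beside that of losing STAT3. PIAS3 attaches SUMO to proteins and is known to inhibit STAT3, and STAT3 is a transcription factor activated by cytokines and growth factors. The PIAS3 plasmid group was transfected with a pCMV5 vector carrying the human PIAS3 coding sequence, and the STAT3 siRNA group with an siRNA against STAT3. The EGF control group was stimulated with epidermal growth factor and not transfected. The design text puts every group in serum-free medium and then EGF, whereas among the titles of the samples only those of the control mention EGF. Cells of all groups had been seeded for 12 h in medium with 10% FBS, and the transfected cells were harvested for RNA 48 h after transfection; no separate harvest time is stated for the control. The labels name no group given an empty vector, a control siRNA or a mock transfection, so transfection itself and the transfected agent cannot be told apart in a comparison with the control. Whether both arrays of a group stem from separate cultures is not stated in the labels; the p-values rest on the spread between such arrays, which may be purely technical.

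Type I interferons are secreted proteins that cells make after sensing foreign nucleic acid, and they act on the same and on neighbouring cells through a receptor with JAK kinases on its inner side. The kinases activate STAT proteins, which join IRF9 and bind a promoter element called the interferon-stimulated response element (ISRE), switching on many genes that restrict viruses. Type II interferon (interferon gamma) acts through another receptor and a different element, the gamma-activated site (GAS). Lung epithelial cells such as A549 respond to both types.

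One array stood apart in these genes, PIAS3 plasmid replicate 1, and every array is therefore given singly. Levels are log2 values after RMA, the authors' normalization, so a difference of 1 is a doubling of signal. Of the 48 genes, 42 were at least 1 log2 higher in PIAS3 plasmid replicate 1 than in the highest of the other 5 arrays, which is 87.5% of them. The same held for 82 of 11963 genes, or 0.685%, so the set made up 51.2% of the genes that stood out in this array. The distance was at least 2 log2 for 30 of the 48 genes and at least 4 log2 for 11. Of the 20 genes with the largest distance over the whole array 19 were in the set, and of the first 50 genes 36 were. No gene of the set, and none of the 11963, stood 1 log2 above all other arrays in any of the other 5 arrays. As 1 array is set against 5, this is a description of that array with no replicate check. In RNA from a whole culture, more responding cells and more RNA per cell cannot be told apart.

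The second PIAS3 plasmid array did not show these levels. Relative to the mean of the 2 control arrays, the median difference over the 48 genes was 2.59 log2 in PIAS3 plasmid replicate 1 and -0.02 log2 in replicate 2. It was -0.05 log2 in both STAT3 siRNA arrays. Over all genes the corresponding medians were -0.01, 0.00, 0.02 and -0.02 log2. In PIAS3 plasmid replicate 1, 47 of 48 genes were above the control mean, against 23 in replicate 2, 16 in STAT3 siRNA replicate 1 and 20 in STAT3 siRNA replicate 2. Between the 2 PIAS3 plasmid arrays, 45 of 48 genes differed by at least 1 log2, where 1.04% of all genes did. Between the 2 STAT3 siRNA arrays only OAS1 did (0.66% of all genes), and between the 2 control arrays none of the 48 did (0.00836% of all genes). Without PIAS3 plasmid replicate 1, a gene of the set spanned a median of 0.35 log2 from its lowest to its highest array, close to the 0.29 log2 of all genes, and 45 of 48 spanned less than 1 log2.

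**Figure D1:**
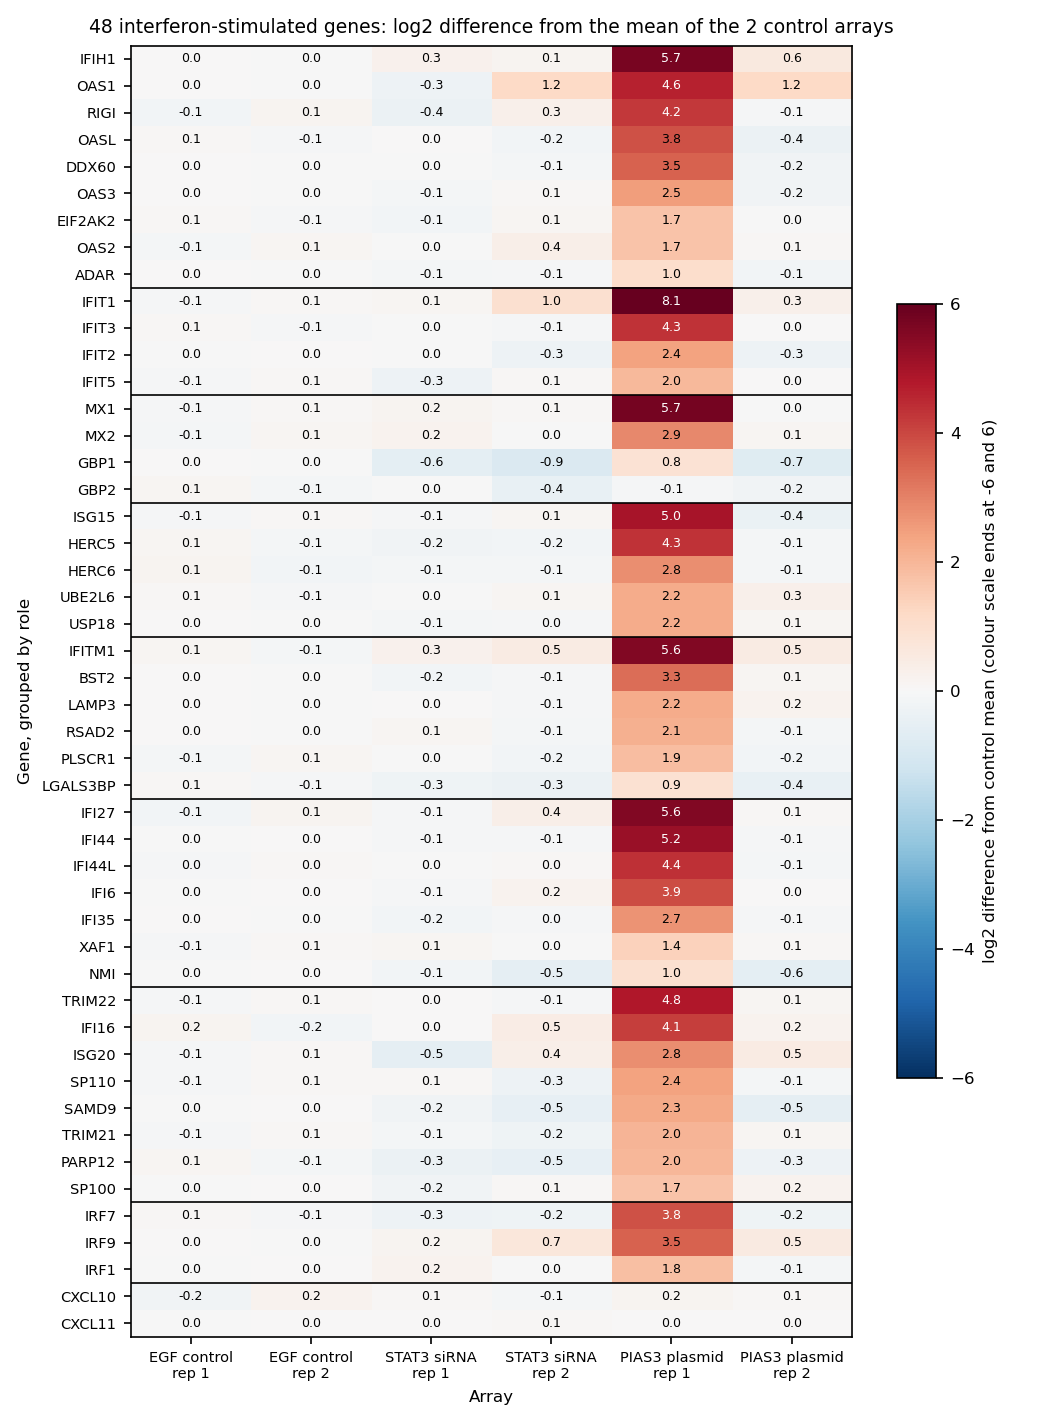
Log2 difference of each of the 48 genes (rows, grouped by role) from the mean of the 2 control arrays, in each of the 6 arrays (columns); red is higher and blue lower, with the value printed in each cell. The column of PIAS3 plasmid replicate 1 is red for 45 of 48 genes, from 0.8 for GBP1 to 8.1 for IFIT1, while the other 5 columns are pale.

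Other measures of the same arrays are given here once. Array medians lay between 6.63 and 6.72 log2 and no pair of arrays held identical values. The array's own control probe sets also read differently in PIAS3 plasmid replicate 1: the 24 probe sets for the poly-A spike-ins, bacterial RNAs added to the sample, were a median of 1.41 log2 above the control mean, against -0.13 in PIAS3 plasmid replicate 2 and -0.36 and -0.23 in the siRNA arrays. The 18 probe sets for the hybridization controls were 0.48 log2 above it, and 3 probe sets for an absent bacterial transcript were -0.04 log2 from it. The part of these controls in the levels of the 48 genes was not tested. The 3′ minus 5′ signal of actin, a measure of RNA integrity, was 0.43 log2 in PIAS3 plasmid replicate 1 and 0.10 to 0.28 log2 in the others. That of GAPDH was 0.40 log2 in PIAS3 plasmid replicate 1, within the 0.29 to 0.40 log2 of the others. PIAS3 itself read 7.70 and 7.71 in the control arrays, 7.50 and 7.64 in the siRNA arrays and 7.78 and 7.72 in the plasmid arrays, a difference of 0.04 ± 0.11 log2 from control (SE, n = 2 per group, limma adjusted p = 0.92). The sources used here do not say whether its probe set detects the plasmid's transcript. STAT3 read 10.50 and 10.43 in control, 10.23 and 9.94 with the siRNA and 10.18 and 9.70 with the plasmid, which did not pass the test (limma, adjusted p = 0.9998 for siRNA against control). Among epithelial markers, keratin 8 (KRT8) read 12.39 to 12.62 log2 and the aldehyde dehydrogenase ALDH1A1 13.71 to 13.87 log2. The lung lineage factor NKX2-1 lay between 5.60 and 6.02. These few genes do not establish the labelled cell type.

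Promoters of the set were searched for the core letters of both elements. Its genes were chosen by name as interferon-stimulated, so a high share of ISRE cores follows largely from that choice. The shares below therefore say nothing on why the genes stood high in 1 array. The windows reach from 250 bases before to 50 bases after each RefSeq transcription start (GRCh38.p14), and 39 of the 48 genes had an entry. The ISRE core, GAAANNGAAA or its reverse TTTCNNTTTC, was found in 26 of the 39 genes (66.7%) and in 4.38% of the 27305 genes of the table. The GAS core, TTCNNNGAA, which reads the same on both strands, was found in 13 of the 39 genes (33.3%) and in 9.38% of all genes. The ISRE core was present in 22 of the 34 genes with a window that stood at least 1 log2 above the other arrays. It was also present in 4 of the 5 that did not. Of these 4, GBP1, LGALS3BP and NMI were still highest in PIAS3 plasmid replicate 1, by 0.81, 0.81 and 0.96 log2, and only CXCL10 was not. Whether the core separates genes that stood out from genes that did not cannot be told from so few. There were 47 ISRE core matches at different positions of the genome, of which 44 lay upstream of the start, 21 of them within 100 bases, and 5 overlapped a GAS core. A core in the windows of several starts of a gene was counted once, at its distance from one of them. A match is only a match of letters, not evidence of binding. Below are 4 genes of different roles with the largest distance and an ISRE core, then the chemokine genes CXCL10 and CXCL11, which did not stand out. Sequences are RefSeq GRCh38.p14, written 5′ to 3′ on the gene's strand, with the ISRE core in capitals; CXCL11, the second of the neighbouring chemokine genes, has no core in its window. CXCL10 was added after its values were seen.
IFIT1 (chr10:89392495-89392554, plus strand): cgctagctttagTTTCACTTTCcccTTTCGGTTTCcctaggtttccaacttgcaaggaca
MX1 (chr21:41420559-41420588, plus strand): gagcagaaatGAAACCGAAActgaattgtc
IFI27 (chr14:94110616-94110675, plus strand): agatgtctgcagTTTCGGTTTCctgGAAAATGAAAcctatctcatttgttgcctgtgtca
IFIH1 (chr2:162318685-162318730, minus strand): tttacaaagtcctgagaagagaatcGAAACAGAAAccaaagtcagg
CXCL10 (chr4:76023684-76023743, minus strand): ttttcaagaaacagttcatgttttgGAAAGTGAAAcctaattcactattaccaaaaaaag
CXCL11 (chr4:76036071-76036170, minus strand): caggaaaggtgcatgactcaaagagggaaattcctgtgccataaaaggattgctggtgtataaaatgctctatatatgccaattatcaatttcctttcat
The IFIT1 and IFI27 stretches each hold 2 cores, 3 bases apart. Counted from the start, the printed core nearest to it begins at base -103 in IFIT1, -95 in IFI27, -21 in IFIH1 and -221 in CXCL10. The MX1 core begins 12 bases after the start of one of its transcripts. The CXCL11 stretch is the 100 bases just before the start.

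**Figure D2:**
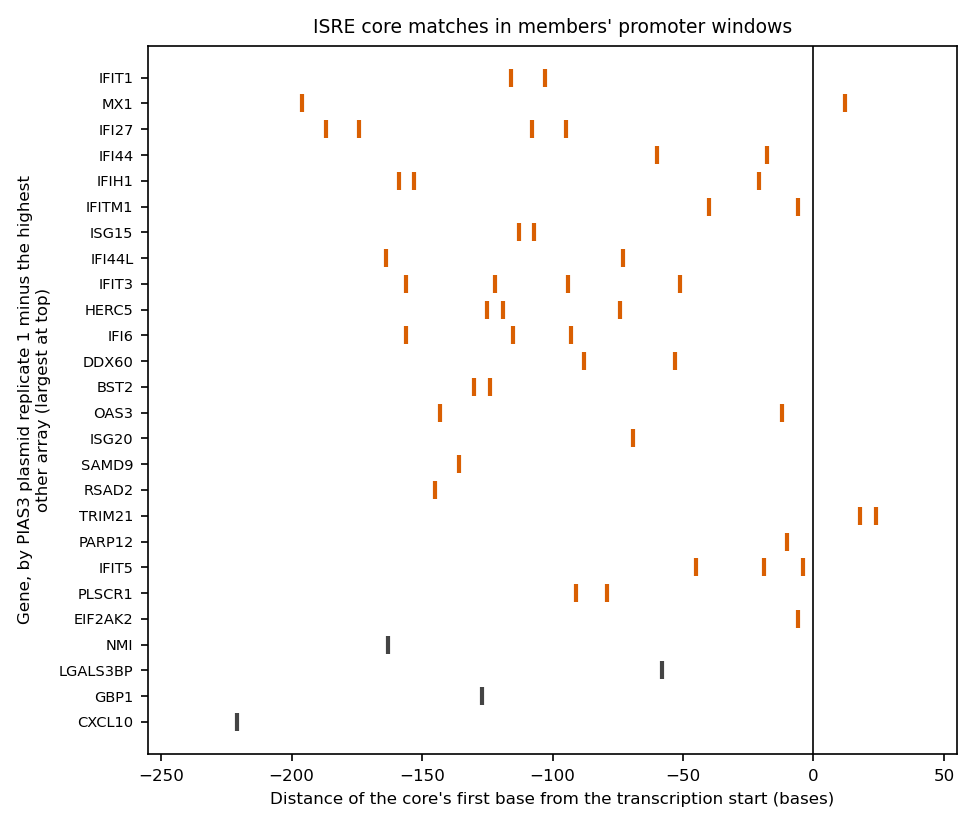
Distance in bases of each ISRE core's first base from the transcription start (x axis) in the 26 genes that hold one, ordered by PIAS3 plasmid replicate 1 minus the highest of the other 5 arrays. Orange marks are genes at least 1 log2 above the other arrays and grey marks the 4 that were not; a gene with several starts can show 1 core at several distances, and most cores lie upstream of the start.

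RNA sensors and RNA-binding enzymes detect viral RNA or act on it, and 9 of 9 stood at least 1 log2 above every other array, with a median of 3.55 log2 above the control mean in PIAS3 plasmid replicate 1. In the values that follow each pair gives replicate 1 and then replicate 2. IFIH1 (MDA5), a cytosolic sensor of long double-stranded RNA, read 4.02 and 3.95 in control, 4.24 and 4.13 with the siRNA, and 9.67 and 4.59 with the plasmid. RIGI, the sensor of short RNA with a 5′ triphosphate, read 4.87 and 5.16 in control, 4.65 and 5.32 with the siRNA, and 9.24 and 4.95 with the plasmid. Both sensors thus had a single high array, 5.08 and 3.91 log2 above the next highest, and that next array was PIAS3 plasmid replicate 2 for IFIH1 and an siRNA array for RIGI. DDX60, a helicase linked to RIGI signalling, read 5.38 and 5.32 in control, 5.32 and 5.23 with the siRNA, and 8.89 and 5.15 with the plasmid. EIF2AK2 (PKR), the kinase that halts translation on double-stranded RNA, read 9.10 and 8.98 in control, 8.89 and 9.17 with the siRNA, and 10.76 and 9.01 with the plasmid. ADAR, which edits adenosines in double-stranded RNA, read 11.12 and 11.05 in control, 10.96 and 11.02 with the siRNA, and 12.13 and 10.94 with the plasmid. ADAR and EIF2AK2 were displaced least of these 5, by 1.01 and 1.60 log2.

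The oligoadenylate synthetases make the 2-5A messenger that activates the nuclease RNase L, and OASL is their relative without that activity. OAS1 read 6.34 and 6.24 in control, 5.97 and 7.47 with the siRNA, and 10.92 and 7.47 with the plasmid. OAS3 read 8.66 and 8.57 in control, 8.51 and 8.70 with the siRNA, and 11.11 and 8.42 with the plasmid. OASL read 6.03 and 5.87 in control, 5.96 and 5.79 with the siRNA, and 9.75 and 5.57 with the plasmid. OAS1 differed from the others in that STAT3 siRNA replicate 2 and PIAS3 plasmid replicate 2 both stood 1.18 log2 above the control mean, and its other probe set also read higher in both, at 7.46 and 7.22, than in control (6.07 and 5.97). For OAS2 the standing probe set read 5.01 and 5.23 in control, 5.09 and 5.49 with the siRNA, and 6.81 and 5.18 with the plasmid. Its other probe set stood 4.14 log2 above the other arrays, where the standing one stood 1.32 log2 above them.

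The IFIT proteins bind viral RNA that lacks the host's cap marks and block its translation. All 4 of them stood at least 1 log2 above every other array, and IFIT1 had the largest distance of all 11963 genes. IFIT1 read 4.18 and 4.32 in control, 4.36 and 5.21 with the siRNA, and 12.36 and 4.57 with the plasmid. PIAS3 plasmid replicate 1 was thus 7.15 log2 above the next array and 277-fold above the control mean. The control values lay little above the highest reading of the probe sets for an absent transcript (3.93), so the fold rests on dim values. Differences of other dim genes carry the same limit, among them IFIH1, IFI44L, XAF1, LAMP3, TRIM22 and RSAD2. Control values of these genes lay between 3.95 and 4.44 log2. IFIT3, the partner that stabilises IFIT1, read 6.97 and 6.79 in control, 6.85 and 6.82 with the siRNA, and 11.21 and 6.90 with the plasmid. IFIT2 read 5.58 and 5.67 in control, 5.60 and 5.34 with the siRNA, and 8.05 and 5.32 with the plasmid. In both genes the other 5 arrays lay within 0.35 log2 of each other. IFIT5, which binds RNA with a 5′ triphosphate, read 8.32 and 8.44 in control, 8.07 and 8.46 with the siRNA, and 10.34 and 8.41 with the plasmid, and its other probe set gave nearly the same distance (1.91 against 1.88 log2).

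The GTPases of the set were split. MX1 (MxA), a dynamin-like protein that traps viral nucleocapsids, read 4.82 and 4.94 in control, 5.05 and 4.94 with the siRNA, and 10.61 and 4.86 with the plasmid, a difference of 53.1-fold between PIAS3 plasmid replicate 1 and the control mean. MX2 (MxB), known for restricting HIV at the nuclear pore, read 5.47 and 5.70 in control, 5.82 and 5.57 with the siRNA, and 8.45 and 5.71 with the plasmid. The guanylate-binding proteins, known above all as targets of interferon gamma, lay differently. GBP1 read 5.31 and 5.23 in control, 4.67 and 4.40 with the siRNA, and 6.12 and 4.53 with the plasmid, so that the siRNA arrays and PIAS3 plasmid replicate 2 were all below the control arrays and PIAS3 plasmid replicate 1 was 0.81 log2 above them. Its other probe set stood 1.85 log2 above the other arrays. GBP2 read 5.72 and 5.52 in control, 5.58 and 5.20 with the siRNA, and 5.57 and 5.43 with the plasmid, with all groups overlapping.

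The ISG15 conjugation system attaches the ubiquitin-like protein ISG15 to other proteins, and 5 of its 5 genes stood at least 1 log2 above every other array. ISG15 itself read 7.19 and 7.31 in control, 7.17 and 7.38 with the siRNA, and 12.20 and 6.86 with the plasmid. PIAS3 plasmid replicate 1 was the highest array for ISG15 and replicate 2 the lowest. UBE2L6, the conjugating enzyme, read 8.62 and 8.52 in control, 8.53 and 8.70 with the siRNA, and 10.80 and 8.89 with the plasmid. HERC5, the main ligase in human cells, read 5.58 and 5.35 in control, 5.27 and 5.30 with the siRNA, and 9.78 and 5.35 with the plasmid. Both plasmid arrays lay above all 4 others for UBE2L6, whereas HERC5 was high in 1 array alone. HERC6, a relative of HERC5, read 7.09 and 6.81 in control, 6.82 and 6.82 with the siRNA, and 9.76 and 6.83 with the plasmid. USP18, which removes ISG15 and also dampens the type I receptor, read 9.26 in PIAS3 plasmid replicate 1, 7.18 in replicate 2, and 6.93 to 7.05 in the siRNA and control arrays.

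Among membrane and secreted proteins, 5 of 6 stood at least 1 log2 above every other array. IFITM1, which hinders fusion of viral with cellular membranes, read 5.98 and 5.79 in control, 6.14 and 6.38 with the siRNA, and 11.44 and 6.36 with the plasmid. BST2 (tetherin), which holds budding virions at the cell surface, read 4.75 and 4.72 in control, 4.58 and 4.68 with the siRNA, and 8.08 and 4.86 with the plasmid. For IFITM1 all 4 transfected arrays lay above both control arrays, 3 of them by at most 0.49 log2 over the control mean, while the siRNA arrays lay below control for BST2. RSAD2 (viperin), an enzyme that makes a chain-terminating nucleotide, read 4.37 and 4.36 in control, 4.47 and 4.23 with the siRNA, and 6.51 and 4.25 with the plasmid. LAMP3, a lysosomal membrane glycoprotein, read 4.24 and 4.19 in control, 4.23 and 4.16 with the siRNA, and 6.42 and 4.42 with the plasmid. PLSCR1, a phospholipid scramblase, read 10.19 and 10.39 in control, 10.26 and 10.12 with the siRNA, and 12.16 and 10.12 with the plasmid. These 3 genes were high in PIAS3 plasmid replicate 1 and close to control in replicate 2. LGALS3BP, a secreted glycoprotein that binds galectins, was the one that fell short of 1 log2: it read 11.18 and 11.02 in control, 10.85 and 10.76 with the siRNA, and 11.99 and 10.65 with the plasmid. PIAS3 plasmid replicate 1 was its highest array by 0.81 log2 and replicate 2 its lowest.

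**Figure D3:**
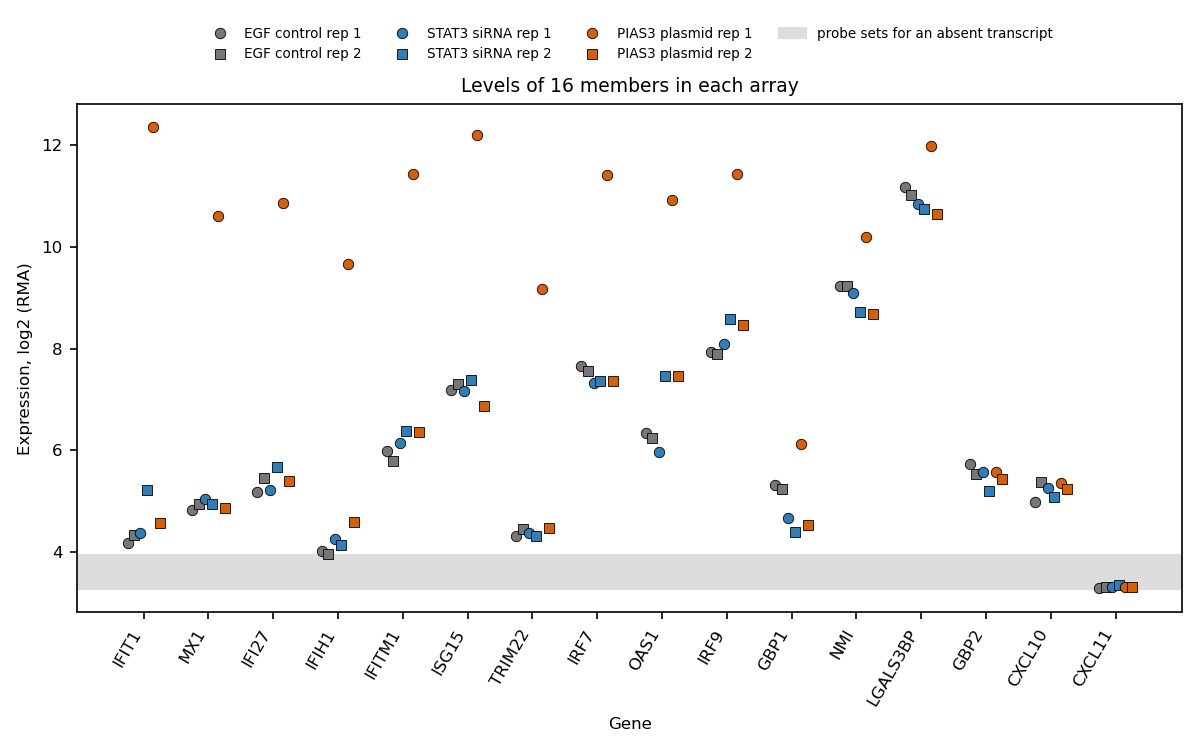
RMA log2 level (y axis) of 16 of the genes in each of the 6 arrays: grey for control, blue for STAT3 siRNA and orange for PIAS3 plasmid, with circles for replicate 1 and squares for replicate 2; the grey band is the range of the probe sets for an absent bacterial transcript (3.26 to 3.93). The orange circle stands alone above the other 5 points from IFIT1 to LGALS3BP and lies among them for GBP2, CXCL10 and CXCL11; levels are not compared between genes.

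The small interferon-induced proteins, most of them of partly known function, had the highest role median, 3.91 log2 above the control mean in PIAS3 plasmid replicate 1, and 6 of 7 stood at least 1 log2 above every other array. IFI27, a mitochondrial protein widely used as a marker of interferon exposure, read 5.17 and 5.45 in control, 5.22 and 5.66 with the siRNA, and 10.86 and 5.39 with the plasmid. IFI6, which protects cells from flavivirus replication, read 5.51 and 5.52 in control, 5.44 and 5.75 with the siRNA, and 9.42 and 5.56 with the plasmid. IFI44L read 4.05 and 4.15 in control, 4.07 and 4.15 with the siRNA, and 8.47 and 3.97 with the plasmid. These 3 genes were high in the same single array. Its relative IFI44 read 9.02 in PIAS3 plasmid replicate 1 and 3.78 to 3.88 in the other 5 arrays. The 5 lower values of IFI44 lie within the range of the probe sets for an absent transcript, so its distance of 5.14 log2 is a lower bound. XAF1, a partner of the apoptosis inhibitor XIAP, read 4.14 and 4.25 in control, 4.31 and 4.16 with the siRNA, and 5.59 and 4.26 with the plasmid. IFI35 read 7.95 and 7.87 in control, 7.74 and 7.86 with the siRNA, and 10.59 and 7.85 with the plasmid. NMI, the protein that pairs with IFI35, read 9.24 in both control arrays, 9.09 and 8.72 with the siRNA, and 10.20 and 8.67 with the plasmid, so it fell just short of the limit at 0.96 log2 and was below control in the other 3 transfected arrays.

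Nuclear-body proteins, nucleases and TRIM ligases stood at least 1 log2 above every other array in 8 of 8 cases. TRIM22, a ubiquitin ligase that restricts viral transcription, read 4.30 and 4.44 in control, 4.37 and 4.30 with the siRNA, and 9.17 and 4.47 with the plasmid. IFI16, a sensor of DNA in the nucleus and cytosol, read 4.74 and 4.38 in control, 4.59 and 5.02 with the siRNA, and 8.70 and 4.78 with the plasmid. SP110, a nuclear-body protein, read 6.66 and 6.82 in control, 6.81 and 6.42 with the siRNA, and 9.16 and 6.61 with the plasmid. In each of these genes the other 5 arrays spanned at most 0.64 log2. ISG20, an exonuclease that degrades single-stranded RNA, read 6.17 and 6.32 in control, 5.70 and 6.60 with the siRNA, and 9.02 and 6.74 with the plasmid. SP100, a component of PML bodies, read 8.20 and 8.24 in control, 8.30 in STAT3 siRNA replicate 2, and 9.94 and 8.44 with the plasmid, with STAT3 siRNA replicate 1 lowest at -0.22 log2 from the control mean. PARP12, an ADP-ribosyltransferase, read 8.02 and 7.83 in control, 7.58 and 7.44 with the siRNA, and 9.92 and 7.60 with the plasmid. PARP12 thus lay below both control arrays in the 3 other transfected arrays, while SP100 and ISG20 were higher in both plasmid arrays than in any other array. The cytosolic antibody receptor TRIM21 and the growth-restricting protein SAMD9 stood 1.92 and 2.22 log2 above the other arrays.

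Of the transcription factors of the set, 3 of 3 stood at least 1 log2 above every other array. Whether they acted on other genes of the set was not tested. IRF7, the factor that amplifies interferon alpha production, read 7.66 and 7.55 in control, 7.32 and 7.36 with the siRNA, and 11.42 and 7.36 with the plasmid. IRF9, the DNA-binding partner of the STAT proteins at the ISRE, read 7.94 and 7.90 in control, 8.09 and 8.58 with the siRNA, and 11.44 and 8.46 with the plasmid. IRF1, a factor induced above all by interferon gamma, read 7.91 and 7.94 in control, 8.15 and 7.92 with the siRNA, and 9.74 and 7.83 with the plasmid. PIAS3 plasmid replicate 1 stood above the next array by 3.76, 2.86 and 1.59 log2 for these 3 genes. IRF9 resembled OAS1 in that STAT3 siRNA replicate 2 and PIAS3 plasmid replicate 2 were also above the control mean, by 0.66 and 0.54 log2.

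The chemokines CXCL10 and CXCL11, which draw T cells and NK cells through CXCR3, did not stand out. CXCL10 read 4.98 and 5.37 in control, 5.26 and 5.07 with the siRNA, and 5.35 and 5.24 with the plasmid. CXCL11 read 3.28 and 3.31 in control, 3.30 and 3.34 with the siRNA, and 3.30 and 3.31 with the plasmid, all within the range of the probe sets for an absent transcript, so no level can be told from these values. With GBP2 they were the 3 genes of the set whose highest array was not PIAS3 plasmid replicate 1. GBP1, LGALS3BP and NMI were the 3 that were highest there by less than 1 log2. The members nearest to the limit on its other side were ADAR at 1.01 log2 and XAF1 at 1.28 log2.

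Several probe sets of a gene mostly told the same on whether it stood out, but often not on its distance. The 48 genes had 68 probe sets, 14 genes having several, and of the 20 probe sets that did not stand for their gene 16 were also at least 1 log2 above the other arrays in PIAS3 plasmid replicate 1. In 7 of these 14 genes, GBP1, IFI16, IFI44, IFIH1, OAS2, SP100 and SP110, the probe sets differed from each other by over 1 log2 in that distance. For IFIH1 the other probe set stood 0.14 log2 above the next array, and for IFI44 0.40 log2. Both of these were within the absent range in the other 5 arrays. The sources used here do not say which transcripts of a gene each probe set reads.

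The 3 comparisons between groups were tested with limma over all 22215 probe sets, with Benjamini-Hochberg adjustment and a threshold of 0.05. None of the 48 genes passed for PIAS3 plasmid against EGF control, where 0.125% of all genes did. None passed for STAT3 siRNA against EGF control (0.00836% of all genes) or for PIAS3 plasmid against STAT3 siRNA (0.0% of all genes). Before adjustment, 5, 0 and 5 of the 48 genes had a p under 0.05. Median differences over the 48 genes were 1.30, -0.04 and 1.33 log2, and without PIAS3 plasmid replicate 1 the first and the last of these were -0.02 and 0.00 log2. The comparisons against the control share its 2 arrays. The spread between the 2 PIAS3 plasmid arrays enters the standard error of every comparison, including that of STAT3 siRNA with control: its median over the 48 genes was 0.73 log2, and 0.14 log2 for PIAS3 plasmid against control when either plasmid array was left out.

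The genes with the smallest p for PIAS3 plasmid against control were those in which replicate 2 was also somewhat above control. OAS1 differed by 2.90 ± 0.99 log2 (SE, n = 2 per group, limma adjusted p = 0.259), and both plasmid arrays were above both control arrays. IFIH1 differed by 3.14 ± 1.34 log2 (adjusted p = 0.359 by limma) and IRF9 by 2.03 ± 0.80 log2 (adjusted p = 0.323 by limma). ISG20 differed by 1.64 ± 0.65 log2 (adjusted p = 0.329 by limma) and UBE2L6 by 1.28 ± 0.51 log2 (adjusted p = 0.332 by limma). IFIT1, whose plasmid arrays lay 7.78 log2 apart, differed by 4.22 ± 2.06 log2 with an adjusted p of 0.426 by limma. Both plasmid arrays were above both control arrays in 17 of 48 genes, against 22.4% of all genes, and both were below in none, against 23.7%. Replicate 1 was above the control mean in 47 of 48 genes, so almost none could have both arrays below. The first count thus depends on replicate 2, which was above the control mean in 23 of 48, and neither count shows agreement of the 2 arrays.

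When PIAS3 plasmid replicate 2 was left out, the remaining array had to be assumed to vary like the arrays of the other groups. Under that assumption 45 of 48 genes were called higher in PIAS3 plasmid replicate 1 than in control, where 2.65% of all genes were, and GBP2, CXCL10 and CXCL11 were not. IFIT1 then differed by 8.11 ± 0.32 log2 (adjusted p = 0.000179 by limma) and ADAR by 1.05 ± 0.12 log2 (adjusted p = 0.0126 by limma). This count describes 1 array and not the plasmid. The array was set apart because these genes stood high in it, so the count and the p-values are no independent support. Its poly-A spike-ins also lay a median of 1.41 log2 above the control mean. Whether it varies like the arrays of the other groups was not tested. When PIAS3 plasmid replicate 1 was left out in its place, no gene of the set was called in any of the 3 comparisons.

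With PIAS3 plasmid replicate 1 set aside, small differences remained among the other arrays. In PIAS3 plasmid replicate 2, OAS1, IFIH1 and IRF9 were at least 0.5 log2 above the control mean (3.37% of all genes), and GBP1, NMI and SAMD9 at least 0.5 log2 below it (2.25%). In STAT3 siRNA replicate 2, OAS1, IFIT1 and IRF9 were at least 0.5 log2 above it (2.52%) and GBP1 and NMI below it (2.44%). In STAT3 siRNA replicate 1 no gene was that far above it (0.978%), and GBP1 and ISG20 were below it (1.15%). OAS1 and ISG20 lay on opposite sides of the control mean in the 2 siRNA arrays. Both siRNA arrays were above both control arrays for IFIH1, IFIT1, IFITM1 and IRF9, 4 of 48 against 19.4% of all genes, and below both for 13 of 48 against 19.5%. GBP1 had the largest such difference, -0.74 ± 0.44 log2 (SE, n = 2 per group, limma adjusted p = 0.9998). Without PIAS3 plasmid replicate 1 its standard error was 0.12 log2 and its adjusted p 0.249 by limma, the smallest of the set, so GBP1 did not pass there either.

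**Figure D4:**
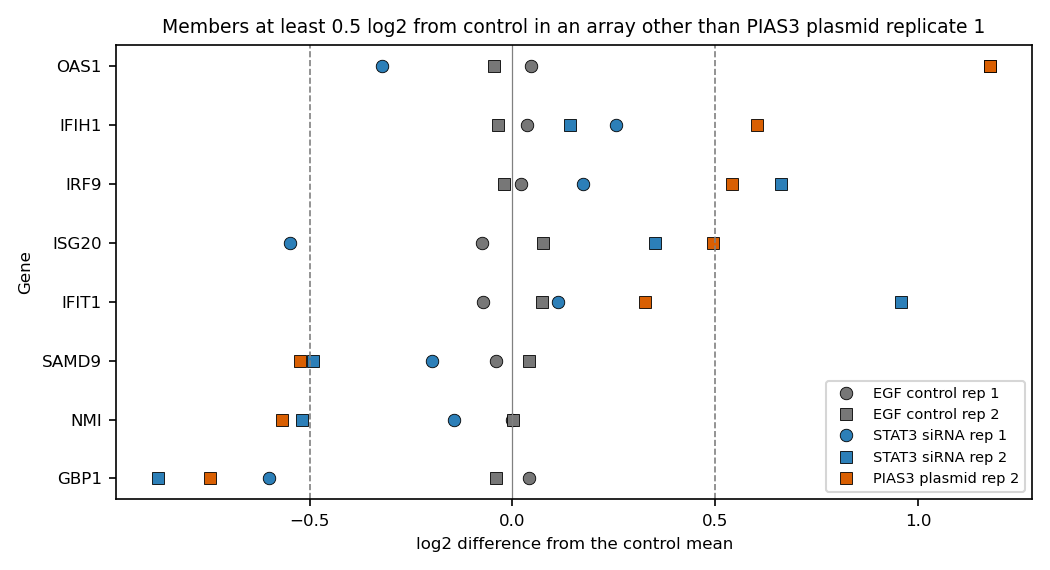
Log2 difference from the control mean (x axis) of the 8 genes that were at least 0.5 log2 (dashed lines) from it in an array other than PIAS3 plasmid replicate 1, which is not drawn; colours are the groups, circles replicate 1 and squares replicate 2. STAT3 siRNA replicate 2 and PIAS3 plasmid replicate 2 lie on the same side of the control mean in all 8 genes and coincide for OAS1, and GBP1 is below it in all 3 arrays. The 8 genes were picked by their distance in these same arrays, so this describes them and shows no shared shift of the arrays.

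The pathway upstream of the set was read from lists of its other genes. Of 20 listed interferon ligands 14 were measured and none stood 1 log2 above the other arrays in PIAS3 plasmid replicate 1, and 6 lay in the absent range in all arrays. The interferon alpha genes are so alike that a probe set may read several of them. IFNB1, an early ligand of infected cells, read 5.32 and 5.04 in control, 5.15 and 5.13 with the siRNA, and 5.61 and 4.78 with the plasmid, 0.29 log2 above the next array. RNA was taken at a single time, so an earlier change of a ligand could not be seen. None of 8 measured receptor and JAK kinase genes stood 1 log2 above the other arrays either, their differences from the control mean lying between -0.30 and 0.27 log2. IFNAR2, a chain of the type I receptor, read 7.88 and 7.98 in control, 7.91 and 8.02 with the siRNA, and 7.63 and 8.15 with the plasmid. Of 11 inhibitors of the pathway, among them the SOCS proteins and the other PIAS proteins, none stood out. SOCS1 read 5.86 and 6.03 in control, 6.02 and 5.70 with the siRNA, and 5.80 and 5.89 with the plasmid. Among 17 measured genes of nucleic acid sensing, MYD88 and TLR3 stood out, by 1.28 and 1.20 log2, where 0.685% of all genes did. The median distance of the 17 was -0.07 log2, where that of all genes was -0.16. MYD88 is the adaptor of most Toll-like receptors, and TLR3 is the endosomal receptor for double-stranded RNA. No gene of these lists passed limma's test in any of the 3 comparisons.

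Other interferon-stimulated genes outside the set were displaced in part. Of 24 measured, 11 stood at least 1 log2 above the other arrays, where 0.685% of all genes did. The median distance of the 24 was 0.92 log2, where that of the 48 genes was 2.39 and that of all genes -0.16. TNFSF10 (TRAIL), a ligand of death receptors, read 4.10 and 3.94 in control, 4.53 and 4.38 with the siRNA, and 8.50 and 4.34 with the plasmid. IFITM3, a close relative of IFITM1, read 9.32 and 9.23 in control, 9.36 and 9.13 with the siRNA, and 11.65 and 9.34 with the plasmid. CCL5, a chemokine for T cells, read 5.10 and 4.95 in control, 5.03 and 4.60 with the siRNA, and 7.09 and 5.03 with the plasmid, so chemokine genes were not alike in this array. The other 8 were IFITM2, TRIM5, TRIM14, TRIM38, RTP4, TMEM140 and the complement proteases C1R and C1S. The IFITM genes are alike in sequence, so a probe set of one may also read another.

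Genes known mainly as targets of interferon gamma were displaced less than the set, but more than all genes. Of 13 measured, 2 stood at least 1 log2 above the other arrays, where 0.685% of all genes did. They were the peptide transporter TAP1, by 1.25 log2, and the immunoproteasome subunit PSMB9, by 1.17 log2. CIITA, the factor that switches on MHC class II genes, read 6.28 and 6.34 in control, 6.32 and 6.44 with the siRNA, and 6.44 and 6.38 with the plasmid. CXCL9, a chemokine that depends on interferon gamma, read 5.33 and 5.36 in control, 5.34 and 5.33 with the siRNA, and 5.69 and 5.14 with the plasmid. The difference between these lists and the set was not tested, as each rests on the same single array.

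Markers of other cells that make or answer interferon did not stand out. Of 15 measured leukocyte markers, 10 measured fibroblast markers and 9 measured endothelial markers none was 1 log2 above the other arrays in PIAS3 plasmid replicate 1. The summed leukocyte level was 9.64 log2 in that array and 9.46 to 9.62 log2 in the others, PTPRC (CD45) reading 3.94 there and 3.85 to 3.95 elsewhere. The summed fibroblast level was 9.64 log2 against 9.54 to 9.76, and the summed endothelial level 8.53 log2 against 8.39 to 8.52. Among 13 epithelial markers the summed level was 16.44 log2 against 16.17 to 16.38, and none was 1 log2 above the other arrays. Single epithelial markers lay from -2.07 to 1.46 log2 from the control mean in PIAS3 plasmid replicate 1. The lowest was the keratin KRT19, which read 11.16 and 11.02 in control, 10.76 and 9.42 with the siRNA, and 9.02 and 9.34 with the plasmid. The highest was ALDH3A1, an aldehyde dehydrogenase, which read 11.61 and 11.55 in control, 11.70 and 12.69 with the siRNA, and 13.04 and 12.62 with the plasmid. Both genes differed from control in the same direction in STAT3 siRNA replicate 2 and PIAS3 plasmid replicate 2, and their part in the levels of the 48 genes was not tested.

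**Figure D5:**
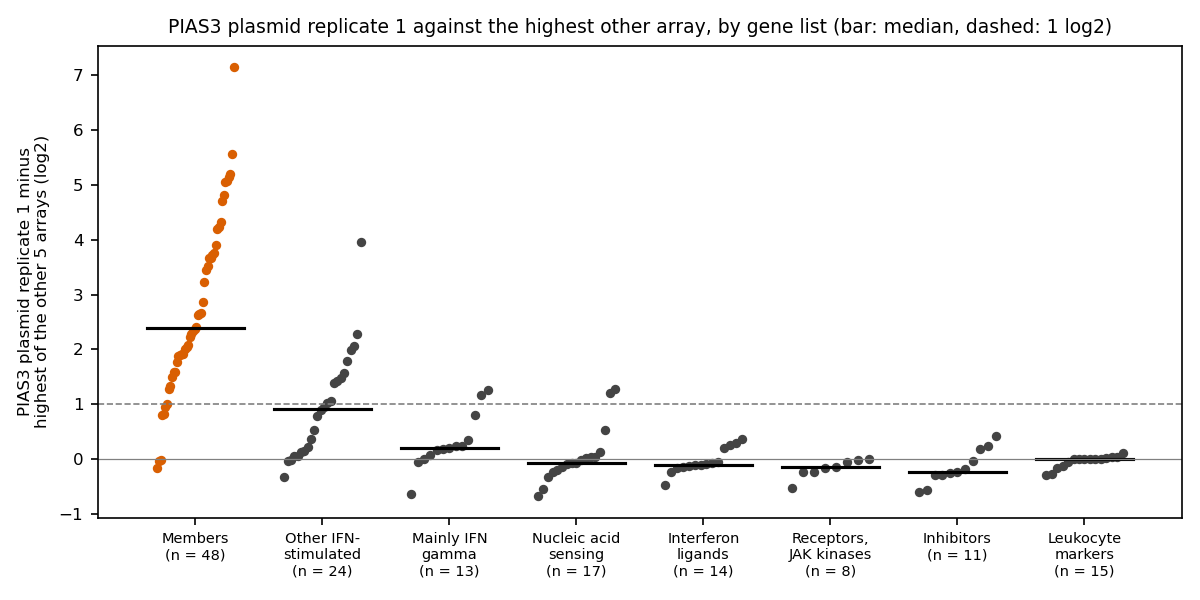
PIAS3 plasmid replicate 1 minus the highest of the other 5 arrays (y axis, log2), one point per gene, for the 48 genes (orange) and 7 other lists (grey), with bars for medians and a dashed line at 1 log2. The medians are 2.39 log2 for the set and 0.92 log2 for other interferon-stimulated genes, and the ligands, receptors, inhibitors and leukocyte markers lie below the dashed line.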

How the data were processed

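Total RNA of A549 cells was labelled and hybridized to Affymetrix arrays, 2 per group, with groups and replicate numbers taken from the sample titles. The values deposited by the authors are log2 levels of probe sets, made by RMA (version unstated) according to the submitters' processing notes. This method subtracts background, makes the distributions of the arrays alike and combines the probes of a set, so it shrinks differences of dim probe sets and relies on most genes being equal. No source used here gives the array software, hybridization dates or genome build, so array batches were not tested, and the number of arrays limits the precision.

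Of 22277 probe sets, 62 array controls were left out of the tests. Of the other 22215, 19064 had 1 symbol in the platform annotation, 1043 had several and 2108 had none; those with several or none stayed unnamed. Differences were tested with limma 3.58.1 under R 4.3.3, two-sided, by lmFit and eBayes on all 6 arrays with a mean for each group. The p-values were adjusted by Benjamini-Hochberg over all 22215 probe sets. The script was tested on simulated data in which the plasmid arrays varied like the control and siRNA arrays. That test therefore does not cover a plasmid array that stands apart. Counts over all genes use 1 probe set for each of 11963 genes. Summed levels of marker lists are log2 of the sum of unlogged levels. The numbers do not pair the samples: across probe sets, deviations of same-numbered arrays correlated at -0.06, 0.09 and -0.05. The alternatives tried were leaving out each array, a replicate block, array weights, fits of 2 groups, a trended or robust eBayes, 3 other normalizations (quantile, median centring, cyclic loess), a filter removing probe sets below the 40th percentile of mean level, averaging a gene's probe sets, and other sizes of difference. Genes named with all values were, in each role, up to 4 with the largest and up to 2 with the smallest distance of PIAS3 plasmid replicate 1 from the other arrays, and those whose probe sets differed. The members and lists were chosen with earlier results of these data known. Some genes of the lists are not reported here. Python 3.11.15 with matplotlib 3.10.9 made the figures.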

Additional observations from a re-analysis of the deposited data

Results flagged for a closer look

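Signal outside the gene measurements stood above its level in the control arrays in PIAS3 plasmid replicate 1. The poly-A spike-ins were a median of 1.41 log2 above the control mean there, their 24 probe sets lying between 0.69 and 1.61 log2. The 18 probe sets of the hybridization controls were a median of 0.48 log2 above it, lying between 0.28 and 0.63 log2. The part of either in the levels of the interferon-stimulated genes was not tested.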

How the results depend on the processing

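No gene of the set was called in any of the 3 comparisons under a replicate block, and the same count of 0 held under every other alternative that left out no single array, the fits of 2 groups alone included. At an unadjusted p under 0.05 the counts over 11 settings, the reported one included, ran from 0 to 27 for PIAS3 plasmid against control, 0 to 7 for STAT3 siRNA against control and 0 to 10 for PIAS3 plasmid against STAT3 siRNA, and the smallest adjusted p by limma from 0.137 to 0.463, 0.249 to 1.0 and 0.502 to 0.883. The limits of 7, 0.249 and 0.883 come from the fits of 2 groups alone, on 4 arrays; with all 6 arrays STAT3 siRNA against control gave 0 to 1 genes and a smallest adjusted p of at least 0.633 by limma. Leaving out 1 array gave 0 to 45 called genes for PIAS3 plasmid against control and 0 to 45 against STAT3 siRNA, with 45 only without PIAS3 plasmid replicate 2. Over the same settings MX1 ran from -0.021 log2 (without PIAS3 plasmid replicate 1) to 5.73 log2, ISG15 from -0.39 to 4.95 log2, and OAS1 for STAT3 siRNA against control from -0.32 log2 (without STAT3 siRNA replicate 2) to 1.18 log2. A filter on dim probe sets kept 28 of the 48 genes, of which 26 stood at least 1 log2 above the other arrays in PIAS3 plasmid replicate 1 and 28 differed by that much within the PIAS3 plasmid pair. The filter uses the mean over all 6 arrays, so a gene can pass through its 1 high array alone, and these counts support nothing. Within the STAT3 siRNA pair 4 genes differed by at least 0.5 log2 and 0 by at least 2 log2. The other values that answer a comparison, 101 in all, were counted as unchanged by a loose rule. Counts could differ from the reported one up to a set ratio, and medians by less than the spread of their array pair. At a limit of 2 log2 the 42 genes that stood out in PIAS3 plasmid replicate 1 became 30. The 45 that differed within the PIAS3 plasmid pair became 32. For medians of the PIAS3 plasmid arrays that spread was 1.93 log2, which comes from replicate 1 standing apart, so the label says little there. With 2 arrays a group and 1 of them apart, these data cannot give the spread of the plasmid's effect.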

Other observations

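Outside all lists, the genes with the largest distance of PIAS3 plasmid replicate 1 from the other 5 arrays were led by CP, which encodes ceruloplasmin, a copper-carrying acute-phase protein, at 2.21 log2. It ranked 31st among all genes and read 5.02 and 5.11 in control, 5.10 and 5.34 with the siRNA, and 7.61 and 5.40 with the plasmid. NR4A2, an orphan nuclear receptor, followed at 1.95 log2 and RARRES1 at 1.93 log2. FCGBP and MUC5AC, secreted proteins of mucus, stood 1.72 and 1.63 log2 above the other arrays. CFB, complement factor B, stood 1.62 log2 above them, and SHFL, an inhibitor of viral frameshifting, 1.64 log2. THEMIS2, PLAAT4 and HSPA6 completed the first 10 with 1.69, 1.67 and 1.59 log2. HSPA6, an inducible heat shock protein, was also high in STAT3 siRNA replicate 2, at 6.78 log2 against 5.39 and 5.70 in control. These genes were picked by that distance, so their values are a description. The lists are not complete, so a gene outside them may still be interferon-stimulated, which was not tested.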
